A study of Mus musculus with 11 samples.

Results

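Calcitonin gene-related peptide (CGRP) signalling was followed through 8 genes: the ligand genes Calca, Calcb and Adm, and the receptor genes Calcrl, Ramp1, Ramp2, Ramp3 and Crcp. They were taken by gene name from the count file of every library. All 8 were found among the 55401 genes listed, and 7 of them passed the filter on low counts that 16817 genes passed. The exception was Ramp1, which had 14 counts in all libraries together. Libraries were made from mouse trigeminal ganglion neurons, whose endings supply sensation to the face and mouth. Both ganglia were dissociated, and cells holding DiI, a dye taken up at nerve endings and carried back to the cell body, were collected by flow sorting. One arm bore tumours of MOC1, a line of oral squamous cell carcinoma from the mouse, and the other was sham. There were 3 libraries from MOC1 females, 3 from MOC1 males, 3 from sham females and 2 from sham males, the last numbered 1 and 3 in the labels. The tracer is common to both arms, and the sorting gate was set with naive mice and DiI-injected sham mice. Strain, age, the time after tumour inoculation and the number of animals behind a library are not given in the sources used here. P-values therefore measure the spread between these libraries, which may in part be technical.

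CGRP is a vasodilator neuropeptide made by peptidergic nociceptors and released from their endings, and in the trigeminal system it is known for its part in craniofacial pain and migraine. Calca encodes calcitonin and alpha-CGRP by alternative splicing, with the CGRP form favoured in neurons, while Calcb encodes beta-CGRP. The CGRP receptor is the G-protein-coupled protein CALCRL paired with RAMP1, and the same protein paired with RAMP2 or RAMP3 is a receptor for adrenomedullin, the peptide encoded by Adm. CRCP is an intracellular protein that couples the receptor to its signalling. The series title links CGRP signalling to tumour pain and immune evasion. The libraries compare the RNA of the sorted cells, which includes RNA of other cell types, between tumour-bearing and sham mice.

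The stretches that encode the mature CGRP peptide in the 2 ligand genes are shown because reads of 75 cycles must tell these genes apart. Both were read from GENCODE M21 transcripts on GRCm38, 5′ to 3′ on the coding strand. The Calca stretch lies in exon 4 of 5 of Calca-201, at chr7:114632470-114632580 on the minus strand. The Calcb stretch lies in exon 4 of 5 of Calcb-201, at chr7:114721994-114722104 on the plus strand. Capitals mark the positions at which the genes differ.
Calca: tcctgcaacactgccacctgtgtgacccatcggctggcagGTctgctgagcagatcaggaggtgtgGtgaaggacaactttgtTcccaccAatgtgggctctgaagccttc
Calcb: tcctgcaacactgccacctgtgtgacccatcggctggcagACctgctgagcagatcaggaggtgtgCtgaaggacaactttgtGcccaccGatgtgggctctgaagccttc
Over these 111 bases, 5 positions differ, an identity of 95.5%, and 3 of the 37 codons encode another residue. The longest run that the Calca-201 and Calcb-201 transcripts share without a difference is 60 bases. Reads that align to several places are held in the files' multimapping total, which took 8.84% to 11.3% of the counts of a library, and are not counted to either gene.

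Counts in genes ranged from 10757426 to 16703797 per library, and genes with at least 1 count from 14180 to 19078. MOC1 female 3, MOC1 male 2 and MOC1 female 2 had the fewest genes detected. The sorted cells held RNA of other cell types, and its amount differed between the arms. The summed level of 16 satellite glia markers was 3594 to 6153 CPM (counts scaled to library size, with TMM factors) in MOC1 libraries and 9209 to 11190 in sham libraries, and 14 of the 16 were lower in MOC1. The sum of 20 pan-neuronal markers was 16890 to 17930 CPM in MOC1 and 12350 to 15330 in sham, with 11 higher. Sham female 1 stood apart by its endothelial markers, which summed to 2168 CPM against 186.3 to 381.6 in the other sham libraries and 172.0 to 340.3 in MOC1. The sum of 8 fibroblast markers was 61.3 to 73.8 CPM in MOC1 and 90.4 to 182.0 in sham, with 1 lower (Col1a2). Of 10 Schwann cell markers 4 were lower and 1 higher, with sums of 1681 to 1809 CPM in MOC1 and 1678 to 2017 in sham. The sum of 10 squamous epithelium markers was 396.2 to 519.2 CPM in MOC1 and 397.0 to 451.5 in sham, with 0 called by edgeR, 2 at an unadjusted p under 0.05 (Epcam and Dsg3). Most of that sum was the cadherin Cdh1 (444.0 and 423.3 CPM on average), while the keratins Krt5, Krt6a, Krt8 and Krt18 were at 0 and Krt14 stayed under 1 CPM. Across all 16817 genes, edgeR's quasi-likelihood test with sex as a term called 1113 genes at an adjusted p under 0.05 (6.62%), 394 higher in MOC1 (2.34%) and 719 lower (4.28%).

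Calca was the member that rose in tumour-bearing mice, by a small amount, while its paralogue Calcb did not pass the test. Calca (ENSMUSG00000030669.13, GRCm38 chr7:114631478-114636357, minus strand) is among the most abundant transcripts of these libraries. It stood at 1126, 1251 and 1195 CPM in MOC1 females 1 to 3 and at 1262, 1168 and 1433 CPM in MOC1 males 1 to 3. The sham libraries held 984.0, 1017 and 1114 CPM in females 1 to 3, and 1025 and 953.5 CPM in males 1 and 3. Every MOC1 library lay above every sham library, the closest pair being MOC1 female 1 and sham female 3, and over all genes tested 6.33% had arms that did not overlap. The means were 1239 ± 107.5 (SD, n = 6) and 1019 ± 60.4 CPM (SD, n = 5), a ratio of 1.22. The log2 fold change was 0.28 ± 0.07 (SE), with an adjusted p of 0.0176 in edgeR's quasi-likelihood test. Calca was thus 1 of 7 members tested that was called higher, and 0 were called lower. This call was lost without MOC1 female 2 (adjusted p = 0.0523), sham male 1 (0.0542) or sham male 3 (0.0899), while the log2 fold change stayed between 0.24 and 0.32. In bulk RNA, fewer cells of a type and less RNA per cell cannot be told apart, and the counts add up the CGRP and calcitonin forms of Calca. The annotated forms measure 994 and 830 bases and share 337.

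Set against neuronal markers, which were also higher in MOC1, the difference in Calca was near 0. Relative to the summed pan-neuronal markers, Calca stood at 0.0662 to 0.0830 in MOC1 and at 0.0654 to 0.0797 in sham libraries. The arms overlapped almost fully, with a log2 difference of 0.00 and an adjusted p of 0.950 in a two-sided exact permutation test, adjusted over 5 ratios. With libraries scaled to the pan-neuronal markers, the log2 fold change of Calca was -0.01 ± 0.08 (SE, adjusted p = 0.974), and with the satellite glia sum as a covariate it was 0.05 ± 0.19 (SE, adjusted p = 0.968). The covariate does not overlap between arms and so competes with the arm term, and under it edgeR called 0 of the 16817 genes (1166 at an unadjusted p under 0.05). Pan-neuronal scaling moved the median of all genes from -0.03 to -0.31 and the split of calls from 394 higher and 719 lower to 28 higher and 2245 lower. Whether the makeup of the sorted cells or the level per neuron moved Calca cannot be told apart in this design.

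Calcb (ENSMUSG00000030666.11, chr7:114718643-114723365, plus strand) encodes beta-CGRP and sits on the same chromosome as Calca. Its level was 80.4, 84.9 and 112.8 CPM in MOC1 females 1 to 3 and 99.1, 77.1 and 106.0 CPM in MOC1 males 1 to 3. The sham libraries held 98.8, 89.3 and 125.2 CPM in females 1 to 3, and 90.6 and 98.5 CPM in males 1 and 3. The arms overlapped, and the highest value of each came from a female replicate 3. Means were 93.4 ± 14.7 (SD, n = 6) in MOC1 and 100.5 ± 14.5 CPM (SD, n = 5) in sham, with a log2 fold change of -0.10 ± 0.12 (SE, adjusted p = 0.761 by edgeR). Scaled to the pan-neuronal markers the value was -0.38 ± 0.12 (SE, adjusted p = 0.0494 by edgeR), which passes the test as a fall. Under that scaling the median of all 16817 genes was -0.31 and 2245 were called lower, so Calcb lies near that median.

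**Figure D1:**
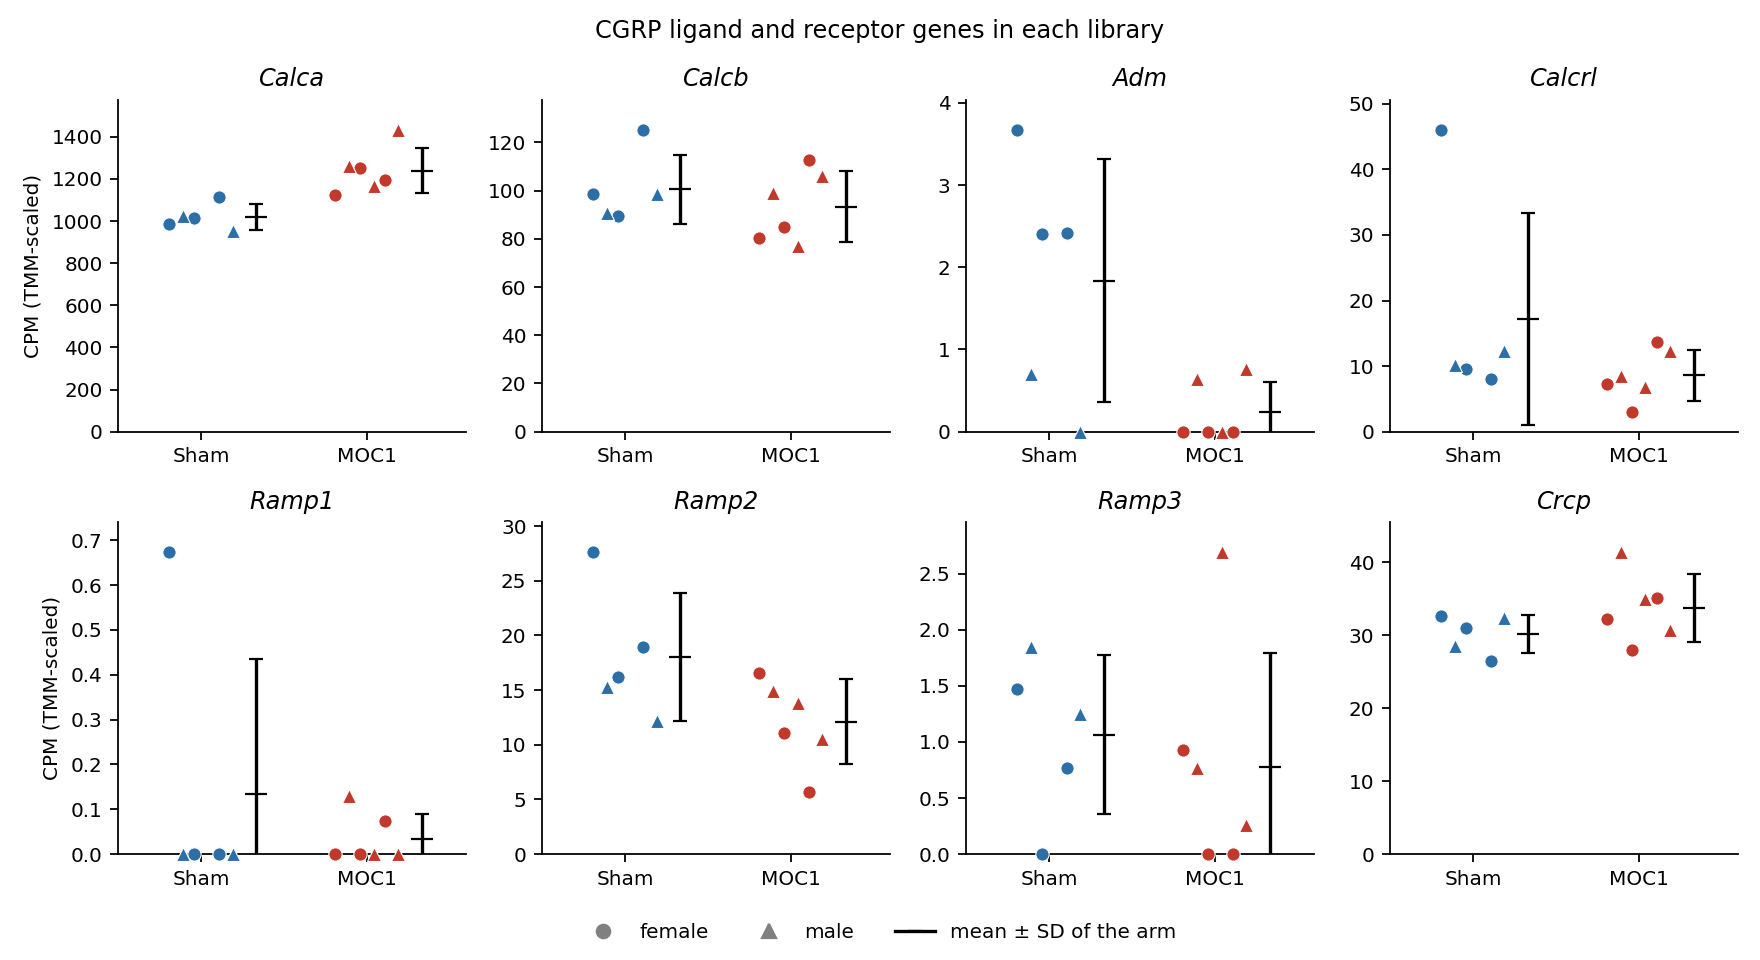
Level of each of the 8 genes in CPM (vertical axes, TMM-scaled, each from 0) in sham (blue) and MOC1 (red) libraries, with circles for females, triangles for males, and the mean ± SD of the arm in black. Calca does not overlap between arms, sham female 1 stands high for Calcrl, Ramp1 and Ramp2, and Adm is at 0 in the 3 MOC1 females.

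Calca was higher relative to Calcb in MOC1, by a difference whose call depends on single libraries. The Calca to Calcb ratio, which needs no scaling between libraries, was 14.0, 14.7 and 10.6 in MOC1 females 1 to 3 and 12.7, 15.2 and 13.5 in MOC1 males 1 to 3. In sham libraries it was 9.96, 11.4 and 8.90 in females 1 to 3, and 11.3 and 9.68 in males 1 and 3. MOC1 female 3 fell inside the sham range, and the other 5 MOC1 libraries lay above the highest sham value. The log2 ratio was higher in MOC1 by 0.39 (1.31-fold; 3.74 ± 0.19 against 3.35 ± 0.15, SD), with p = 0.00866 (two-sided, exact permutation of the libraries, 462 regroupings, smallest possible p 0.00216) and an adjusted p of 0.0433 over the 5 ratios. That adjustment covers fewer ratios than planned, since a Ramp1 ratio was left out after its counts were seen. The adjusted p is close to the threshold, so a pass over all the planned ratios is not shown. The adjusted p rose to between 0.0595 and 0.119 in 9 of the 11 runs without a library, which have fewer regroupings. The log2 difference in those 9 lay between 0.34 and 0.43. Relative to the pan-neuronal sum, Calcb stood at 0.00450 to 0.00634 in MOC1 and at 0.00607 to 0.00817 in sham libraries. That is a log2 difference of -0.39 (p = 0.0217, adjusted p = 0.0541, exact permutation test), with 4 of 6 MOC1 libraries below the lowest sham value.

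**Figure D2:**
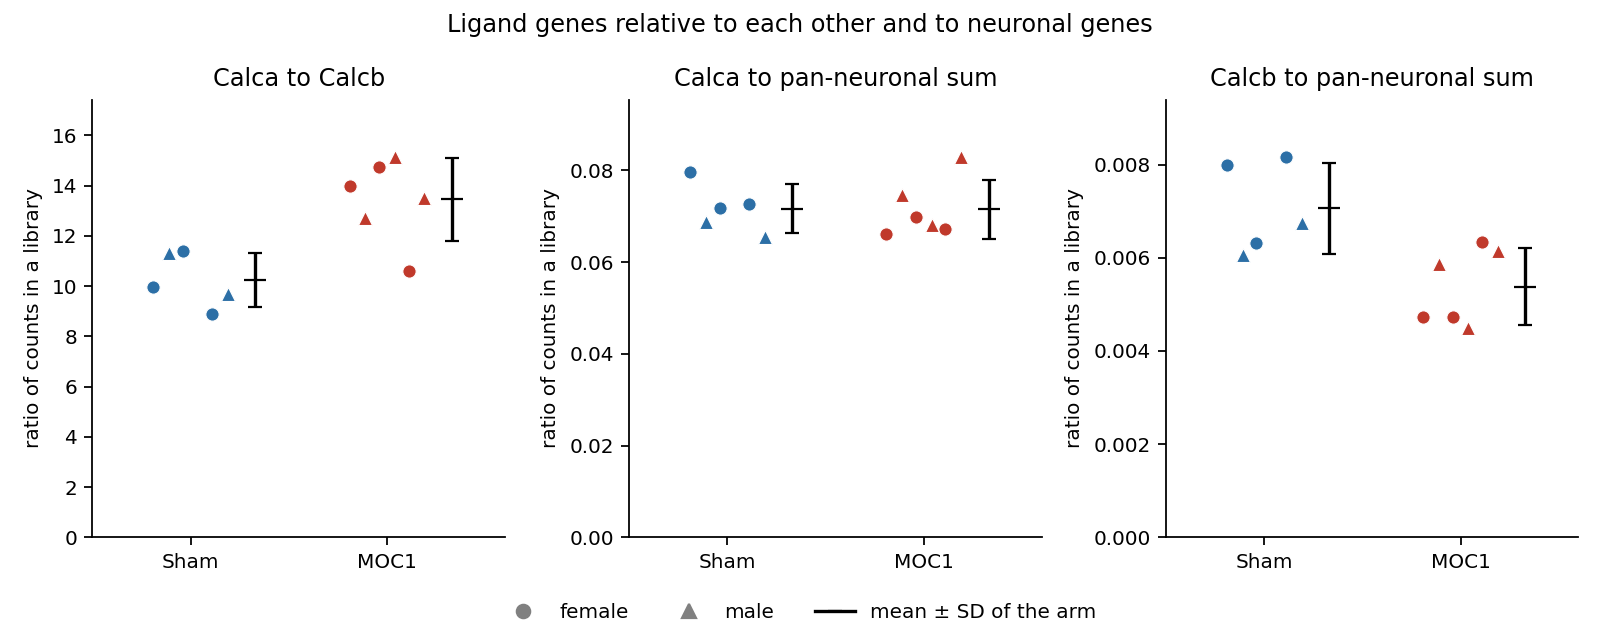
Ratio of Calca to Calcb, of Calca to the summed pan-neuronal markers and of Calcb to that sum (vertical axes, no unit) in each sham and MOC1 library, with circles for females and triangles for males. The ratio of Calca to Calcb lies between 10.6 and 15.2 in MOC1 and between 8.90 and 11.4 in sham, while the ratio of Calca to the neuronal sum overlaps between arms.

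Adm (ENSMUSG00000030790.15, chr7:110627661-110629820, plus strand), the adrenomedullin gene, was near the detection limit, and its few counts were mainly in sham females. Sham females 1 to 3 had 60, 40 and 41 counts, or 3.67, 2.41 and 2.42 CPM. Sham males 1 and 3 had 11 and 0 counts. MOC1 males 1 and 3 had 10 and 12 counts, or 0.643 and 0.765 CPM, and the other 4 MOC1 libraries had 0. The MOC1 females were all at 0, and with 3 counts per library as the floor (0.233 CPM on average) their level was at least 12.2-fold lower than the mean of 2.83 CPM in sham females. This floor covers counting error only. Over both sexes the means were 0.235 ± 0.366 CPM in MOC1 (SD, n = 6) and 1.84 ± 1.48 in sham (SD, n = 5), and edgeR's adjusted p was 0.416. DESeq2 gave an adjusted p of 0.0168 for the same comparison, the lowest of its alternatives. The endothelial sum was 2168 CPM in sham female 1, and 186.3 and 188.3 CPM in sham females 2 and 3. Which cells the Adm counts came from was not tested.

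The receptor genes were at lower levels than the ligand genes Calca and Calcb, and none passed the edgeR test between arms with the filter on low counts. Adm, the third ligand gene, lay below Calcrl, Ramp2 and Crcp on average. Calcrl (ENSMUSG00000059588.13, chr2:84330626-84425411, minus strand) encodes the receptor protein itself. Its level was 7.23, 2.995 and 13.7 CPM in MOC1 females 1 to 3 and 8.49, 6.77 and 12.3 CPM in MOC1 males 1 to 3. Sham female 1 held 46.0 CPM, against 9.62 and 8.09 in sham females 2 and 3 and 10.1 and 12.2 in sham males 1 and 3. A single sham library therefore sets the difference between the means of 8.58 ± 3.90 (SD, n = 6) and 17.2 ± 16.2 CPM (SD, n = 5). The log2 fold change was -0.92 ± 0.46 (SE, adjusted p = 0.295 by edgeR), and without sham female 1 it was -0.21 ± 0.36 (SE, adjusted p = 0.877), where the sham mean was 10.01 ± 1.72 CPM (SD, n = 4). Without the filter on low counts the adjusted p was 0.0368, with sham female 1 still in the fit.

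Sham female 1 is the library in which endothelial markers were high. Cdh5, the cadherin of endothelial junctions, stood at 197.2 CPM there, at 12.1 to 27.8 in the other sham libraries and at 6.25 to 26.8 in MOC1. Pecam1, an endothelial adhesion molecule, stood at 152.0 CPM there, at 7.52 to 23.4 in the other sham libraries and at 9.66 to 20.97 in MOC1. Endothelial cells are known to carry Calcrl and Ramp2. Of the 17 endothelial markers, all tested, 1 was called lower in MOC1 and 0 higher, or 0 either way without sham female 1, MOC1 female 3 and MOC1 male 2. Relative to their sum, Calcrl differed between arms by a log2 value of -0.05 and Ramp2 by 0.15, each with an adjusted p of 0.950 in the exact permutation test. Without sham female 1 these values were -0.23 and -0.30, so they rest in part on that library. How much of the Calcrl and Ramp2 counts came from endothelial cells was not tested.

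Ramp2 (ENSMUSG00000001240.13, chr11:101246028-101259546, plus strand), the partner that makes an adrenomedullin receptor, was the highest of the 3 Ramp genes. It stood at 16.6, 11.1 and 5.66 CPM in MOC1 females 1 to 3 and at 14.9, 13.9 and 10.52 CPM in MOC1 males 1 to 3. The sham libraries held 27.6, 16.2 and 19.0 CPM in females 1 to 3, and 15.3 and 12.2 CPM in males 1 and 3. The arms overlapped through the males and MOC1 female 1. Means were 12.1 ± 3.90 (SD, n = 6) in MOC1 and 18.1 ± 5.86 CPM (SD, n = 5) in sham, with a log2 fold change of -0.54 ± 0.28 (SE, adjusted p = 0.325 by edgeR), or -0.37 ± 0.29 (SE, adjusted p = 0.625) without sham female 1. Of its 3301 exon bases, 1103 overlap Vps25 on the same strand, where a read cannot be given to 1 gene, so its level is uncertain.

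Ramp1 (ENSMUSG00000034353.14, chr1:91179822-91225196, plus strand), the partner that makes the CGRP receptor, was close to undetected. Sham female 1 had 11 counts, MOC1 male 1 had 2, MOC1 female 3 had 1, and the other 8 libraries had 0. A count of 0 allows up to 3 counts, which is 0.177 to 0.278 CPM at these depths. Ramp1 did not pass the filter on low counts. In the fit without that filter its log2 fold change was -0.97 ± 3.71 (SE, adjusted p = 0.930 by edgeR), and a difference between arms was not detectable at this depth. Ramp3 (ENSMUSG00000041046.7, chr11:6658521-6677475, plus strand), which makes another adrenomedullin receptor, had 154 counts in all. MOC1 libraries had 10, 0 and 0 counts in females 1 to 3 and 12, 41 and 4 in males 1 to 3. Sham libraries had 24, 0 and 13 counts in females 1 to 3, and 29 and 21 in males 1 and 3. The arms overlapped from 0 upwards, with means of 0.774 ± 1.02 CPM in MOC1 (SD, n = 6) and 1.07 ± 0.712 in sham (SD, n = 5) and a log2 fold change of -0.84 ± 1.44 (SE, adjusted p = 0.848 by edgeR).

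**Figure D3:**
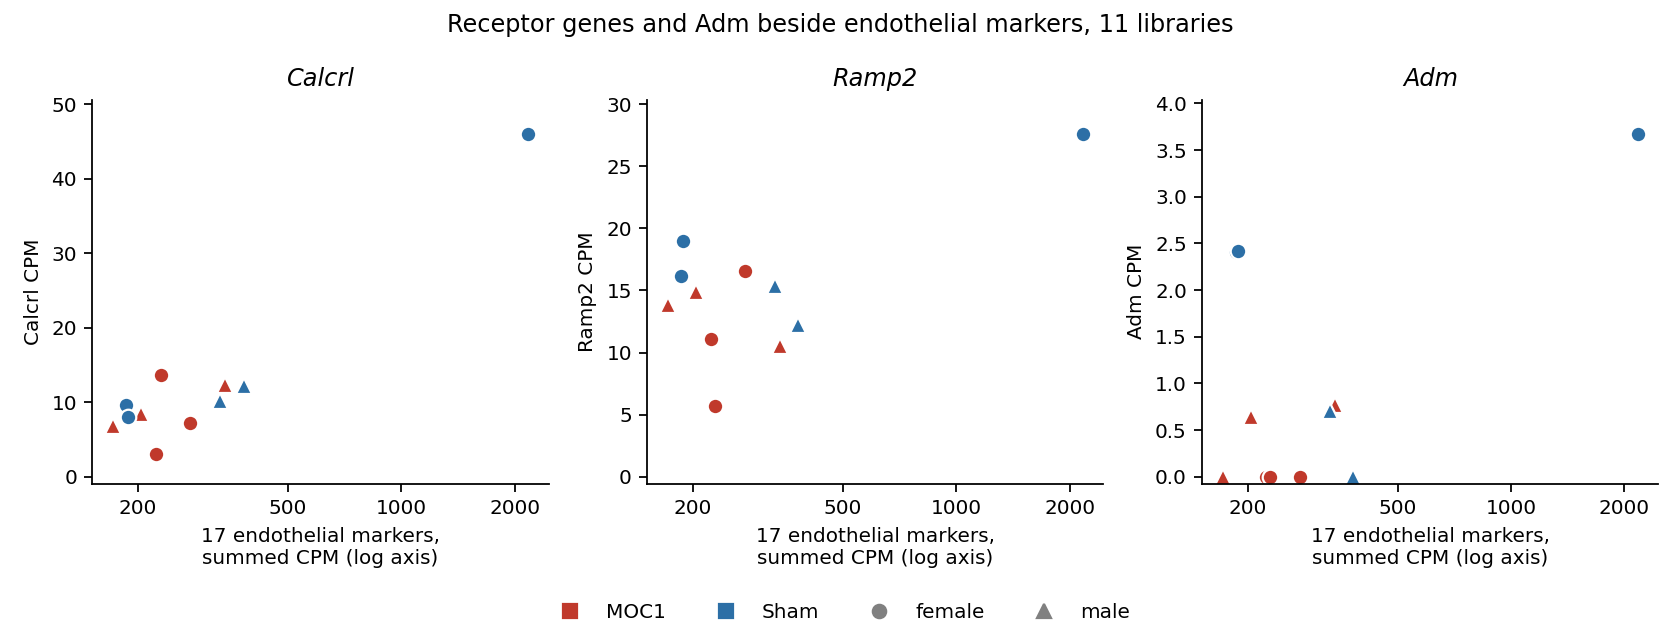
Level of Calcrl, Ramp2 and Adm in CPM (vertical axes) against the summed CPM of 17 endothelial markers (horizontal axes, log scale) in the 11 libraries, by arm and sex. Sham female 1, at an endothelial sum of 2168 CPM, lies apart in each panel, and the other 10 libraries lie between 172.0 and 381.6.

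Crcp (ENSMUSG00000025532.13, chr5:130029290-130060789, plus strand), the receptor's intracellular coupling protein, varied least, relative to its mean, among the receptor genes. It stood at 32.2, 28.0 and 35.1 CPM in MOC1 females 1 to 3 and at 41.3, 35.01 and 30.7 CPM in MOC1 males 1 to 3. The sham libraries held 32.6, 31.0 and 26.4 CPM in females 1 to 3, and 28.5 and 32.3 CPM in males 1 and 3. The arms overlapped, with means of 33.7 ± 4.62 (SD, n = 6) and 30.2 ± 2.64 CPM (SD, n = 5). The log2 fold change was 0.15 ± 0.14 (SE, adjusted p = 0.683 by edgeR), and with pan-neuronal scaling it was -0.14 ± 0.16 (SE, adjusted p = 0.618).

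**Figure D4:**
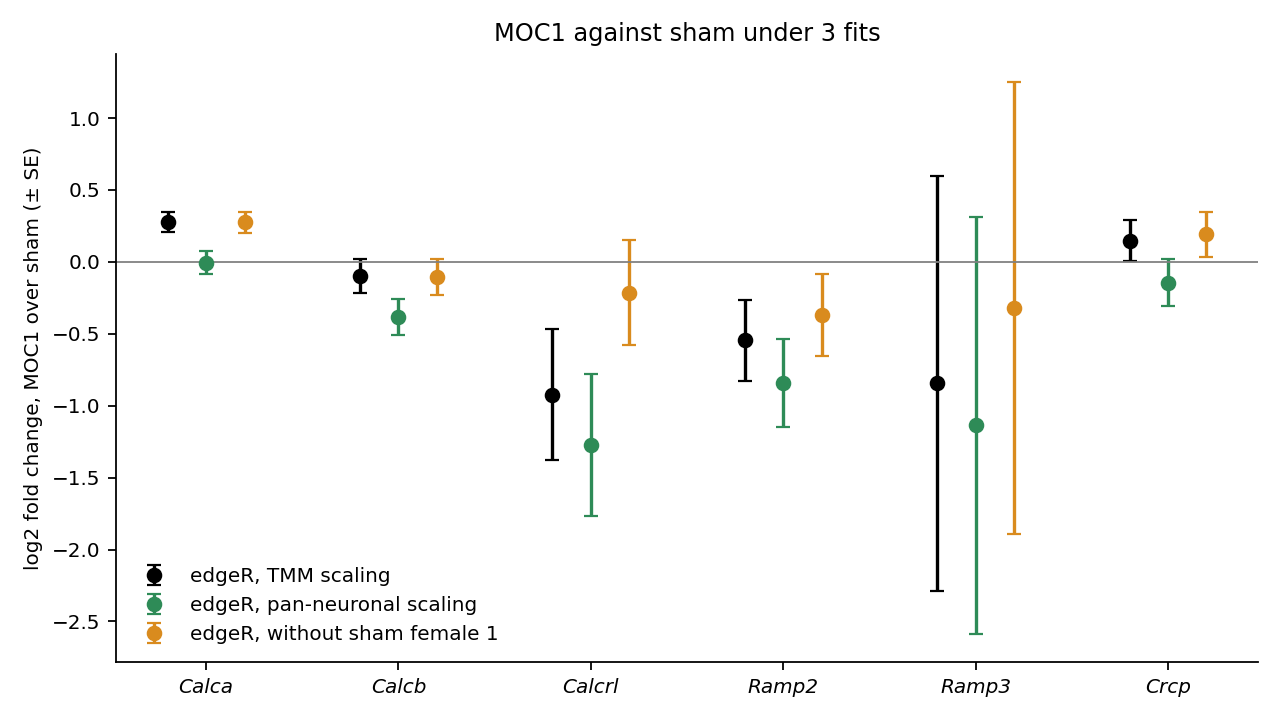
Log2 fold change of MOC1 against sham with its SE (vertical axis) for Calca, Calcb, Calcrl, Ramp2, Ramp3 and Crcp. Values are from the edgeR fit with TMM scaling, with pan-neuronal scaling, and without sham female 1. Calca moves from 0.28 to -0.01 with pan-neuronal scaling, and Calcrl from -0.92 to -0.21 without sham female 1.

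Compared per kilobase of exon, so that genes of different length can be set side by side, the order in sham libraries was Calca, Calcb, Crcp, Ramp2, Calcrl, Adm, Ramp3 and Ramp1. Calca held 605.0 ± 35.9 CPM per kb (SD, n = 5) in sham and 735.9 ± 63.9 in MOC1 (SD, n = 6). It ranked 20 of 54349 genes in sham and 16 in MOC1 by mean level. Calcb followed at 79.5 ± 11.5 CPM per kb in sham, 7.61-fold lower than Calca, and ranked 381. Crcp held 19.0 ± 1.67 CPM per kb. Over the sham libraries, none of the first 3 genes overlapped in range with the next. Ramp2 followed at 8.21 ± 2.67 CPM per kb, Calcrl at 3.53 ± 3.31, Adm at 1.14 ± 0.911 and Ramp3 at 0.772 ± 0.516. Each of these overlapped in range with its neighbour, so the ranges do not separate them. Library by library, Ramp2 lay above Calcrl and Calcrl above Adm in every sham library. Adm lay above Ramp3 in the sham females and below it in the sham males. In MOC1 libraries the first 5 kept the sham order of means, with Calcb at 73.9 ± 11.6, Crcp at 21.3 ± 2.91, Ramp2 at 5.51 ± 1.78 and Calcrl at 1.76 ± 0.799 CPM per kb (SD, n = 6). Calcrl lay above Ramp2 in MOC1 female 3 and below it in the other MOC1 libraries.

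The change of Calca had the same sign in both sexes. Calca was 1191 ± 62.6 CPM in MOC1 females (SD, n = 3) and 1038 ± 67.7 in sham females (SD, n = 3), a log2 fold change of 0.20 ± 0.09 (SE, adjusted p = 0.258 by edgeR). In males it was 1288 ± 134.0 CPM in MOC1 (SD, n = 3) and 989.4 ± 50.8 in sham (SD, n = 2), a log2 fold change of 0.38 ± 0.10 (SE, adjusted p = 0.0919 by edgeR). The sex by tumour interaction was 0.18 ± 0.13 (SE, unadjusted p = 0.190 and adjusted p = 1.00 by edgeR), so the difference between sexes did not pass. Calcrl had a log2 fold change of -1.42 ± 0.59 in females (SE, adjusted p = 0.220 by edgeR) and -0.28 ± 0.65 in males (SE), with an interaction of 1.13 ± 0.88 (SE, unadjusted p = 0.217). Without sham female 1 the Calcrl value in females was -0.15 ± 0.53 (SE) and the interaction -0.12 ± 0.75 (SE). Ramp2 had -0.91 ± 0.36 in females (SE, adjusted p = 0.186 by edgeR) and -0.07 ± 0.40 in males (SE), with an interaction of 0.84 ± 0.54 (SE, unadjusted p = 0.137), or -0.66 ± 0.40 (SE) in females without sham female 1. Neither gene was shown to differ between the sexes in its change. Within females edgeR called 0 of 7 members and 4.48% of all genes. At an unadjusted p under 0.05 there were 4 members (Calca, Calcrl, Ramp2 and Adm) and 2903 of the 16817 genes, and DESeq2 called Adm among 1239 genes. Within males edgeR called 0 members and 1.25% of all genes. At an unadjusted p under 0.05 there were 1 member (Calca) and 1337 genes, and DESeq2 called Calca among 357 genes. The interaction called 0 members and 0% of all genes with edgeR and with DESeq2, while 1 member (Adm) and 708 genes had an unadjusted p under 0.05 with edgeR. Between males and females, edgeR called 0 members and 0.0416% of all genes, and no member had an unadjusted p under 0.05 or was called by DESeq2.

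Other genes of the pathway were taken as lists, in the order of the peptide's path. For comparison, edgeR called 2.34% of all genes tested higher in MOC1 and 4.28% lower. Of the 20 pan-neuronal markers 11 were higher and 0 lower, with a median log2 fold change of 0.29. Of 11 genes that mature neuropeptides and fill dense-core vesicles, 5 rose in MOC1 and 0 fell, with a median log2 fold change of 0.32 against -0.03 over all genes tested. Vgf, a granin-like precursor packed with neuropeptides, rose from 70.5 ± 19.2 (SD, n = 5) to 150.0 ± 26.7 CPM (SD, n = 6), a log2 fold change of 1.07 ± 0.14 (SE, adjusted p = 4.64e-05 by edgeR). Its arms did not overlap. Pcsk1, a prohormone convertase, rose by 0.75 ± 0.17 (SE, adjusted p = 0.0124) and Scg2, a granin, by 0.34 ± 0.08 (SE, adjusted p = 0.0159) by edgeR. With pan-neuronal scaling 1 of the 11 was higher, Vgf at 0.77 (adjusted p = 0.00243 by edgeR), and the list's median was 0.05.

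Of 15 genes of vesicle release, 6 rose and 1 fell, with a median of 0.25. Cadps, which primes dense-core vesicles, rose by 0.26 ± 0.06 (SE, adjusted p = 0.0147 by edgeR), and its arms did not overlap. Vamp3, a vesicle protein found widely outside neurons, fell from 40.8 ± 9.34 (SD, n = 5) to 16.8 ± 4.52 CPM (SD, n = 6), a log2 fold change of -1.30 ± 0.20 (SE, adjusted p = 0.000327 by edgeR). With pan-neuronal scaling 0 rose and 1 fell, and the median was -0.03. Snap25 and Syt1 of this list are also among the markers that set this scaling.

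Of 23 genes that carry receptor signals through G proteins, cyclic AMP and arrestins, 3 rose and 1 fell, with a median of 0.17. Prkar2a and Prkar1b, regulatory subunits of protein kinase A, rose by 0.35 ± 0.08 (SE, adjusted p = 0.0111) and 0.22 ± 0.06 (SE, adjusted p = 0.0355), and Arrb1, an arrestin, by 0.32 ± 0.08 (SE, adjusted p = 0.0161), by edgeR. Pde4b, which breaks down cyclic AMP, changed by -0.87 ± 0.17 (SE, adjusted p = 0.00373 by edgeR), and its arms did not overlap. With pan-neuronal scaling 0 rose and 4 fell, and without sham female 1, MOC1 female 3 and MOC1 male 2 together 2 rose and 2 fell. Of 7 genes of peptide breakdown, 0 rose and 1 fell, with a median of 0.11. That gene was Ece1, endothelin-converting enzyme, known to cut CGRP in endosomes, which went from 182.8 ± 37.9 (SD, n = 5) to 125.6 ± 8.30 CPM (SD, n = 6), a log2 fold change of -0.53 ± 0.11 (SE, adjusted p = 0.00433 by edgeR).

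Of 13 genes of Calca transcription and splicing, 12 passed the filter, 4 rose and 1 fell, with a median of 0.13, and Foxa2 was at 0 counts in every library. Rbfox2 rose by 0.35 ± 0.07 (SE, adjusted p = 0.00418), and Elavl4 and Elavl3, neuronal RNA-binding proteins that are also among the pan-neuronal markers, by 0.33 ± 0.07 (SE, adjusted p = 0.00980) and 0.29 ± 0.08 (SE, adjusted p = 0.0386), by edgeR. Ptbp1, a splicing repressor low in neurons, changed by -1.01 ± 0.17 (SE, adjusted p = 0.000725 by edgeR), from 43.6 ± 11.9 (SD, n = 5) to 20.8 ± 3.02 CPM (SD, n = 6). With pan-neuronal scaling 0 rose and 1 fell, and without the same 3 libraries 2 rose and 1 fell. Rbfox3 of this list is also among the markers that set this scaling. Of 12 genes that mark peptidergic neurons, 1 rose and 0 fell, with a median of 0.29, and without the 3 libraries 4 rose. The gene that rose was Trpv1, the capsaicin receptor, by 0.32 ± 0.08 (SE, adjusted p = 0.0196 by edgeR), and with pan-neuronal scaling 0 of the 12 rose and 1 fell. Satellite glia and fibroblast marker sums were lower and the pan-neuronal sum higher in the same MOC1 libraries, and their part in these counts was not tested beyond the scaling given.

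**Figure D5:**
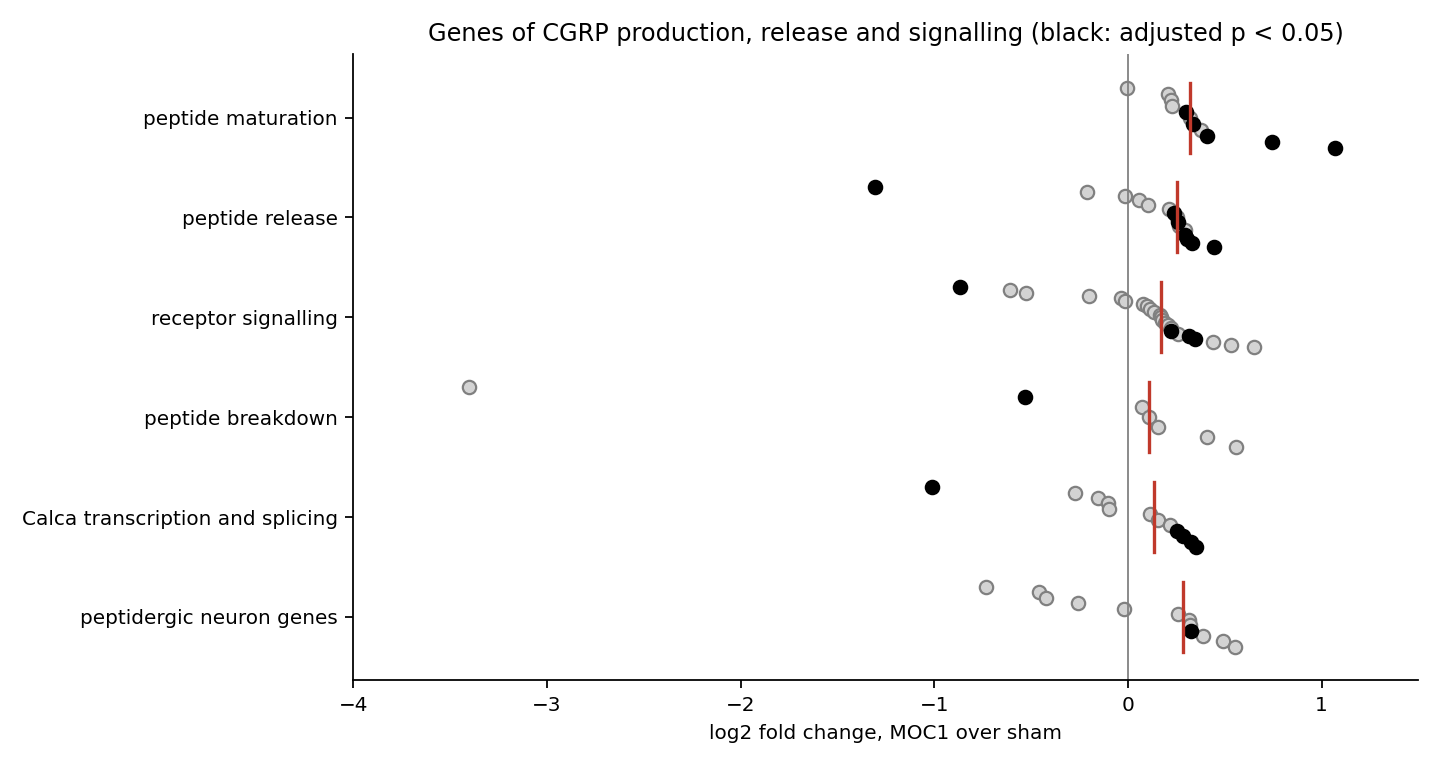
Log2 fold change of MOC1 against sham (horizontal axis, edgeR) for each tested gene of 6 lists of the CGRP pathway, with black points for an adjusted p under 0.05 and a red line at the list's median. The medians lie between 0.11 and 0.32, and Vgf at 1.07 and Vamp3 at -1.30 lie far from the medians of their lists. The point farthest from 0 is Dpp4 of peptide breakdown, at -3.40 with an SE of 2.998 and 92 counts in all, which was not called.

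The other calcitonin-family genes Calcr, Adm2 and Iapp were listed with Ackr3, which is not of that family. Ackr3, an atypical receptor that takes up adrenomedullin and the chemokine CXCL12, was the 1 of these 4 that passed the filter, and it fell. It stood at 3.22 ± 0.931 CPM in MOC1 (SD, n = 6) and 9.52 ± 3.33 in sham (SD, n = 5), without overlap, a log2 fold change of -1.61 ± 0.37 (SE, adjusted p = 0.0105 by edgeR) or -1.89 (adjusted p = 0.00172) with pan-neuronal scaling. Calcr, the calcitonin receptor, and Adm2 had 0 counts in every library. Iapp, the amylin gene, was under 1 CPM in all.

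Genes whose log2 CPM followed a member most closely over the 11 libraries were named by Pearson's r among 9486 genes with a mean of at least 10 CPM, as a description. The libraries of 1 arm share that arm's makeup, so part of any r comes from it. Calca was followed most closely by Septin3 (0.94), Pink1 (0.92), Pld3 (0.92), Rbm3 (0.91) and Rab37 (0.91), and its r with Calcb was 0.10. Calcb was followed by Clpp (0.91), Arf5 (0.90), Cul4b (0.89), Jakmip2 (0.87) and Zfp729a (0.85). Ramp2 was followed by Lats2 (0.95), Cdc5l (0.94), Glul (0.94), Wrn (0.94) and Rab22a (0.93), of which Glul, glutamine synthetase, is a gene of satellite glia. Calcrl was followed by Thbd (0.94), Slfn5 (0.93), Rnf169 (0.93), Rgs16 (0.93) and Klf2 (0.90), of which Thbd, thrombomodulin, and Klf2 are known in endothelium. Calcrl stood at 46.0 CPM in sham female 1 and at 13.7 CPM or less elsewhere. Its r values may therefore rest on that library, and they were not computed without it.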

How the data were processed

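Poly(A) RNA from 11 libraries was sequenced as single-end reads of 75 cycles. The deposited files hold raw counts per gene, strand-specific, from STAR, per the file headers. Trimming with Trimmomatic 0.35, alignment to GRCm38 with STAR 2.7.1a, and RSEM are named, per the submitters' processing notes. Totals that name no gene took 18.7% to 21.5% of counts and were left out.

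edgeR 4.0.16 (R 4.3.3) was run with filterByExpr on 4 groups of arm and sex, TMM scaling, an additive sex term in the quasi-likelihood F test between arms, and Benjamini-Hochberg adjustment at 0.05. A 4-group fit gave the comparisons within each sex and the interaction. SE is the size of the log2 fold change over the square root of F. Ratios used log2 values with 0.5 counts added. Their comparisons were two-sided exact permutation tests over libraries.

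The 8 genes and the 7 lists beside them were chosen with earlier results of these data known. From each list the text names the called genes with the smallest p, up to 3 in each direction. Some genes that this rule takes are left out of the text. Alternatives used DESeq2 1.42.0, limma 3.58.1 and other filters, scalings, covariates and libraries. A planned ratio and likeness for Ramp1 were left out, since it had 14 counts. No pair of libraries in a group agreed within sampling noise (chi-square per degree of freedom 13.9 to 42.4).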

Additional observations from a re-analysis of the deposited data

Results flagged for a closer look

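In 26 checks of single libraries against the others of their arm, 4 values stood apart, where chance gives about 1 in 20. Calcb in sham female 3 was 125.2 CPM, against 98.8 in the nearest sham library. Calcrl in sham female 1 was 46.0 CPM, against 12.2 in the nearest. Ramp1 in sham female 1 was 0.673 CPM, with the other 4 sham libraries at 0. Ramp3 in MOC1 male 2 was 2.69 CPM, against 0.927 in the nearest MOC1 library. Sham female 1 was also the library with the highest endothelial marker sum, 2168 CPM, and MOC1 male 2 was among the libraries with the fewest genes detected, at 15327.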

How the results depend on the processing

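The log2 fold change of Calca was above 0 in every alternative except pan-neuronal scaling (-0.0058). It lost the call there, with the satellite glia covariate (0.0549) and without any of 3 libraries, at 0.24 to 0.32 over the leave-one-out runs. Pan-neuronal scaling called 2273 genes and moved the median of all genes to -0.31. It put Calcb at -0.38 past the threshold (adjusted p = 0.0494 by edgeR) and turned Crcp to -0.14. The satellite glia covariate called 0 genes and 0 members with edgeR (1166 genes at an unadjusted p under 0.05) and turned Ramp2 to 0.68 and Ramp3 to 4.22. This covariate differs between arms without overlap. Without a low-count filter 2 members were called, Calca and Calcrl (-0.92, adjusted p = 0.0368), 2 within females and 1 within males. That fit called 1573 of 24535 genes, with 1316 within females and 469 within males. DESeq2 called 2, Calca and Adm (-5.09), 1 within females and 1 within males. Over all genes DESeq2 called 1505 of 16817, with 1239 within females and 357 within males. Leaving out single libraries gave 0 to 1 members called, and 816 to 1129 genes. Over all alternatives the adjusted p ranged from 0.000336 to 0.974 for Calca, 0.0494 to 0.981 for Calcb, 0.0368 to 0.881 for Calcrl, 0.0786 to 0.926 for Ramp2 and 0.0168 to 0.945 for Adm. Without sham female 1, MOC1 female 3 and MOC1 male 2 together, Calca was 0.31 (adjusted p = 0.00944). With MOC1 female 2 left out as well, chosen after seeing the data, it was 0.31 (adjusted p = 0.00590).

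Among the ratios, Calca to Calcb ranged from 0.34 to 0.46 over the leave-one-out runs and was 0.42 without the 3 libraries (adjusted p = 0.143). Calca to the pan-neuronal sum ranged from -0.0487 to 0.0343, was 0.0085 with the mean of log2 values and 0.0721 without the 3 libraries. Calcb to that sum ranged from -0.45 to -0.34 and passed the threshold without MOC1 female 3 or sham male 1. Ramp2 to endothelium ranged from -0.30 to 0.45 and was -0.23 without the 3 libraries. Calcrl to endothelium ranged from -0.23 to 0.20 and was 0.0467 with the mean of log2 values and -0.51 without the 3 libraries. The causes of these moves were not tested.

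Same-numbered libraries did not deviate together (15 pairs, correlations from -0.04 to 0.02). Deviations were taken from the means of small groups, so this check cannot tell whether the numbers pair samples. The replicate block left Calca at 0.28 (adjusted p = 0.0244), with 1090 genes and 1 member called. Low counts limit Ramp1, Ramp3 and Adm (14, 154 and 174 in all libraries together), and the reason for them was not tested.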

Other observations

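The near absence of Ramp1 counts was set beside its neighbours on chromosome 1, chosen after its values had been seen. Ube2f, the next protein-coding gene after it (chr1:91250304-91290337, plus strand), had 515 to 876 counts in every library. Rbm44, the one before it (chr1:91145089-91170795, plus strand), had 0 counts in every library.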
